A study of Homo sapiens with 12 samples.

Results

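A set of 57 genes of the DNA replication origin and fork was followed in human multiple myeloma cell lines treated with JQ1. The members were listed by function and found by symbol among 60666 Ensembl gene IDs. Each was found once, and all 57 passed the filter on low counts that left 23493 genes for testing. They were divided by role into 8 groups, which are origin licensing with 9 genes, the helicase and its activation with 14, the polymerases with 9, and clamp loading and strand processing with 11. The others are nucleotide supply with 3 genes, S phase entry regulators with 4, fork protection with 4, and chromatin behind the fork with 3.

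RNA was sequenced from 3 established lines, KMS-11, KMS-12 and RPMI8226, each given as wild type (WT) and grown in RPMI-1640 medium with fetal bovine serum. JQ1, an inhibitor of the BET bromodomain proteins that read acetylated histones, was added at 1 µM for 72 h, and control cells received an equal volume of DMSO, the solvent of JQ1. There were 2 libraries in each of 6 groups, 12 in all, and each line stands for itself as a model, since no group holds a second line of its kind. The labels do not say that the 2 libraries of a group came from separate cultures. The p-values therefore set a difference between groups against a spread between libraries, estimated over all groups, that can be technical. Libraries held 15424512 to 27366499 counted reads, and 3 reads, taken as the floor, correspond to 0.107 to 0.178 CPM, the unit of level used here (read counts scaled to the same library total).

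A cell prepares its origins before S phase, when the origin recognition complex, CDC6 and CDT1 load the MCM helicase onto DNA. Cyclin E and the DBF4-dependent kinase then start the helicase together with CDC45 and GINS, and the polymerases, the PCNA clamp and its loader copy both strands. Many of these genes are transcribed in late G1 by E2F factors, and dividing myeloma cells express them. All 12 libraries carried plasma cell RNA, with the summed level of 8 identity genes between 2182 and 4027 CPM. SDC1, IRF4, PRDM1 and XBP1 stood at 73.4 CPM or more in every library, but the sum does not hold for each gene. CD38 was at 0.387 to 0.951 CPM in KMS-11 and POU2AF1 at 1.26 to 6.37 CPM in KMS-12. TNFRSF17 was at 1.14 and 4.09 CPM in KMS-11 JQ1 and at 0.797 and 0.713 CPM in RPMI8226 JQ1. Summed markers of other cells were low, at 0.617 to 13.9 CPM for 7 T and NK cell genes, 0.619 to 27.4 CPM for 7 myeloid genes, at most 1.25 CPM for 7 stromal and endothelial genes and at most 0.143 CPM for 5 erythroid genes.

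The replication genes moved in opposite directions in the KMS lines and in RPMI8226. In KMS-11, 38 of the 57 fell with JQ1 and 4 rose, against 21.2% of all genes tested that fell and 17.3% that rose. In KMS-12, 31 fell and 7 rose, where 25.7% of all genes fell and 20.2% rose. In RPMI8226, 41 rose, where 13.6% of all genes did, and none fell, where 18.6% did. A change was called at an adjusted p under 0.05 in edgeR's quasi-likelihood test, Benjamini-Hochberg adjusted over all genes tested; at an unadjusted p under 0.05 the count of falls in RPMI8226 was 0 with edgeR, 0 with DESeq2 and 0 with limma-voom. The median log2 change of the members was -0.93 for KMS-11, -0.75 for KMS-12 and 0.76 for RPMI8226, and over all genes it was 0.00, -0.06 and -0.03.

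**Figure D1:**
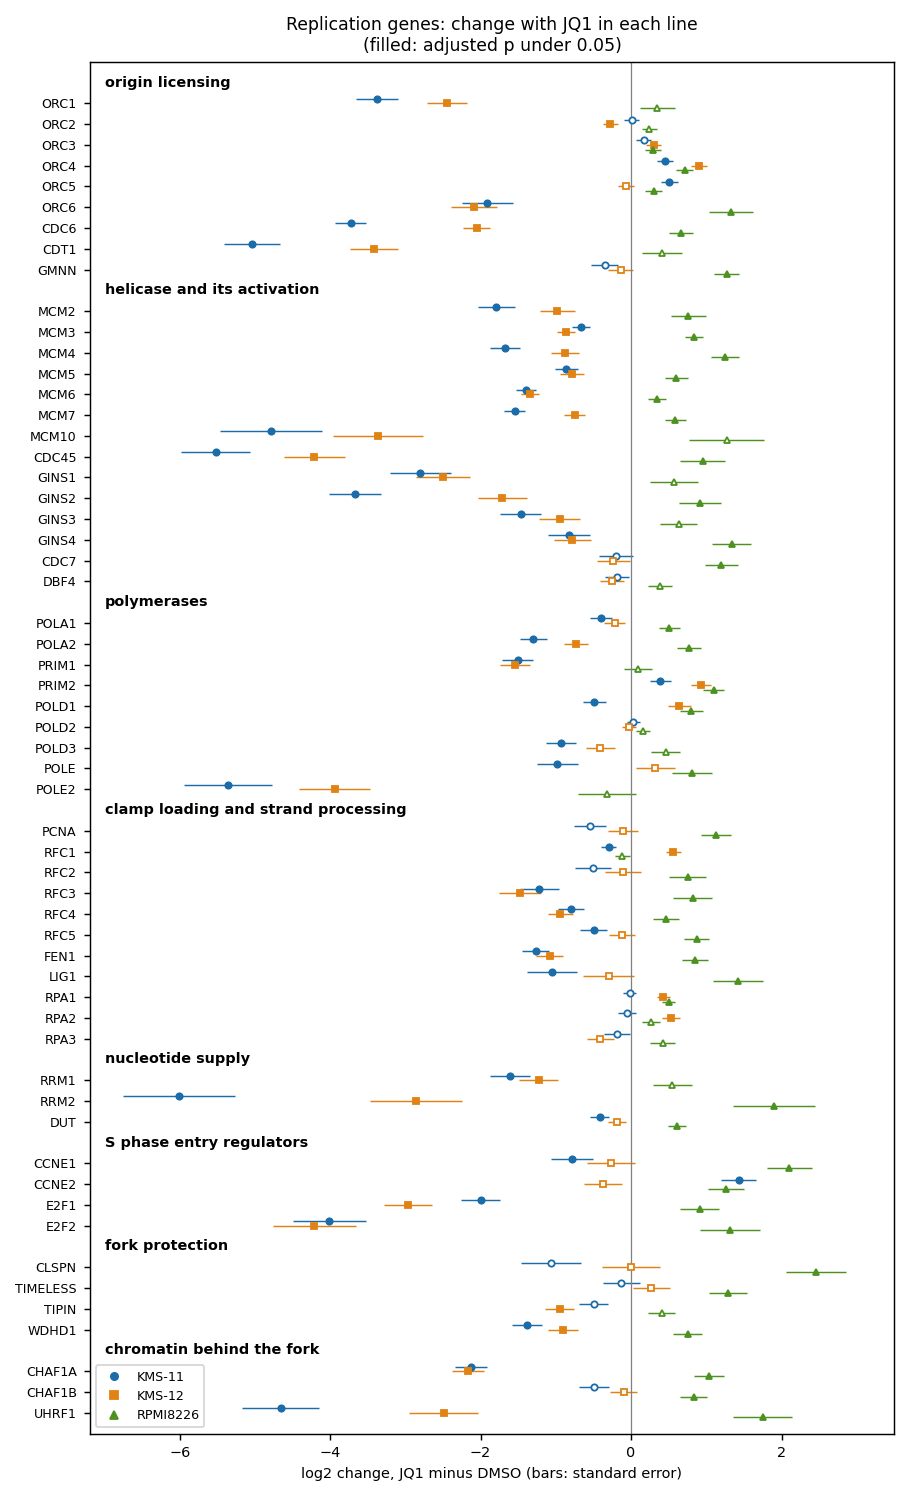
Log2 change with JQ1 (horizontal axis, JQ1 minus DMSO, bars show the standard error) of each of the 57 genes, by role, in KMS-11 (circles), KMS-12 (squares) and RPMI8226 (triangles), with filled symbols for changes past the threshold. The helicase genes lie left of zero in both KMS lines and right of it in RPMI8226, while ORC4 and PRIM2 lie right of zero in every line.

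The response itself differed between the 3 lines for 53 of the 57 genes, against 30.1% of all genes, and the other four were ORC3, ORC4, DBF4 and POLD2. The response in RPMI8226 lay above the mean of both KMS responses for 46 members, where 8.56% of all genes did so, and below it for none, where 7.03% did (at an unadjusted p under 0.05 the count below was 0 with edgeR and limma-voom and 1 with DESeq2). The comparison of RPMI8226 with the KMS mean was chosen knowing that an earlier account of these data gave opposite directions in RPMI8226. Between KMS-12 and KMS-11 the response differed for fewer members. It was higher in KMS-12 for 10, against 10.1% of all genes, and lower for 2, against 9.87%. How far these counts depend on single libraries was not tested. A fall in both KMS lines was found for 29 members, where 11.8% of all genes did so, and 21 of these also rose in RPMI8226, a pattern held by 0.532% of all genes. A fall in at least 1 KMS line with a rise in RPMI8226 was held by 28 members and by 1.65% of all genes. ORC4 and PRIM2 rose in all 3 lines, as did 6.04% of all genes, and DBF4, POLD2 and RPA3 were called in none, as were 33.4%. Both JQ1 libraries lay below both DMSO libraries for 42 members for KMS-11 and 41 for KMS-12, and above them for 54 in RPMI8226. The same held for 33.5%, 40.6% and 30.1% of all genes tested.

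The size of the changes was unequal. In KMS-11, 12 members fell at least 4-fold (7.01% of all genes), and in KMS-12 13 did (9.58%), while in RPMI8226 16 rose at least 2-fold (3.35%). The genes past 4-fold in both KMS lines were CDC6, CDT1, ORC1, CDC45, MCM10, GINS1, POLE2, RRM2, E2F2, UHRF1 and CHAF1A. Of their partners in the same complexes, ORC2 to ORC5 beside ORC1 and POLE beside POLE2 had log2 changes between -0.98 and 0.90 in the KMS lines. In bulk RNA, a smaller share of cells in S phase and less RNA of these genes in each cell cannot be told apart.

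A DMSO library of KMS-11 and the shift in mitosis genes stand beside these counts. Replicate 1 of KMS-11 DMSO lay below replicate 2 for all 57 members, by a median of 0.69 on the log2 scale and by up to 1.49 for POLE2, while 10829 of 23493 genes tested were higher in replicate 2 and their median difference was 0.00. In the other groups the median of the members differed between the libraries by 0.01 to 0.11. Without KMS-11 DMSO replicate 1, 47 members fell in KMS-11; without replicate 2 of that group 30 did, and without KMS-11 JQ1 replicate 1 29 did. In RPMI8226, 21 members rose without DMSO replicate 1, 27 without JQ1 replicate 2, and 50 without KMS-11 DMSO replicate 1, whose spread enters the estimate shared by all groups. The summed level of 12 mitosis genes, including MKI67, TOP2A and CDK1, was 496 and 1483 CPM in KMS-11 DMSO and 51.0 to 62.7 CPM with JQ1. It went from 622 to 721 CPM to 48.4 to 101 CPM in KMS-12, and from 356 to 440 CPM to 573 to 736 CPM in RPMI8226. All 12 of these genes fell in each KMS line, and 1, AURKB, passed the test in RPMI8226. The part of a shift in dividing cells in the replication gene results was not tested.

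**Figure D2:**
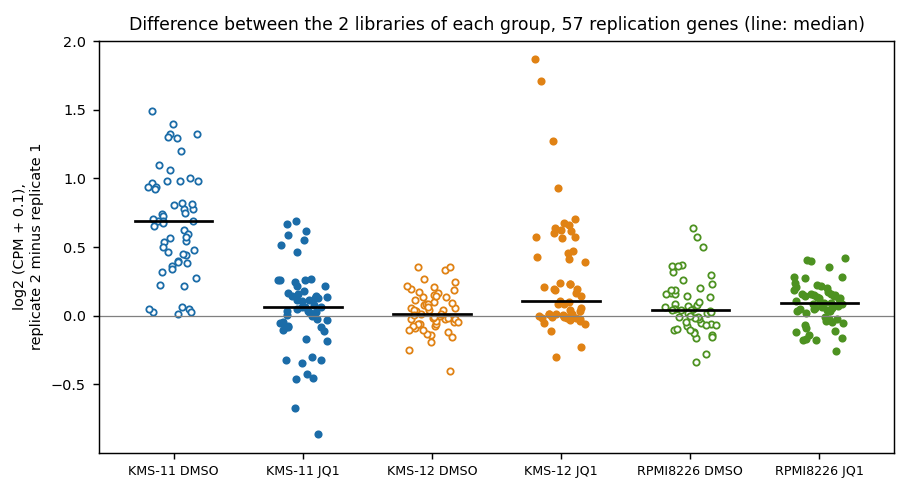
Log2 difference between replicate 2 and replicate 1 (vertical axis, of CPM plus 0.1) of the 57 genes within each of the 6 groups, with a line at the median. All points of KMS-11 DMSO lie above zero with a median of 0.69, and the highest point of KMS-12 JQ1 is MCM10 at 1.87.

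Scaling bears on the KMS-12 values in particular. MALAT1, an abundant nuclear RNA, took 3.61% to 9.01% of reads in the DMSO libraries, 14.5% and 16.5% in KMS-11 JQ1, 25.7% and 25.8% in KMS-12 JQ1, and 6.31% and 6.56% in RPMI8226 JQ1. With library size alone in place of TMM scaling, the median of all genes shifted by -0.26 for KMS-11, -0.77 for KMS-12 and -0.03 for RPMI8226. The members then split into 49 falls and 1 rise in KMS-11, 49 falls and 0 rises in KMS-12, and 0 falls and 38 rises in RPMI8226. Over all genes, the share of calls that were rises went from 45% to 23.8% (KMS-11), from 44% to 7.49% (KMS-12) and from 42.2% to 39.4% (RPMI8226). The values here are relative to the TMM scale, on which the median of all genes is near zero.

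Promoters were searched because the members moved together. RefSeq windows of 300 bases (250 before to 50 after the start, GRCh38.p14) were found for 50 of the 57 genes, and MCM4, MCM5, GINS4, POLD3, RPA2, RPA3 and CCNE2 had none. An E2F word (TTTCCCGC, TTTCGCGC, TTTGCCGC or TTTGGCGC, on either strand, neighbouring words may overlap) stood in a window of 25 of the 50, or 50%, against 3.99% of 27305 genes with a window. It stood in 15 of the 26 members that fell in both KMS lines (57.7%) and in 10 of the other 24 (41.7%). CCAAT, the word of NF-Y, was in 58% of the members and 39.7% of all genes. The CHR words TTTGAA and TTCGAA, known from mitosis gene promoters, were in 8% and 19.5%, and the E-box CACGTG, a word of the MYC family, was in 16% and 8.77%. Members had 1.34 windows each and all genes 1.29.

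The stretches before the start of 8 members show how the words are placed, with E2F words in capitals and each sequence written 5' to 3' on the strand of its gene. MCM6 has 4 overlapping words in pairs, beginning 152, 148, 90 and 86 bases before the start, and fell in both KMS lines. E2F1 and E2F2, themselves E2F factors, have a word 33 and 42 bases before the start and fell in both; the window of E2F1 holds another word nearer the start, past the end of its stretch. PCNA and POLA1, with a word 59 and 137 bases before it, did not pass the test in KMS-12, and RRM1, shown without a word, fell in both KMS lines. ORC4 and PRIM2, which rose in every line, have no word in the stretches shown. The 8 stretches do not stand for all members. Of those past 4-fold lower in both KMS lines, CDC6, CDT1, GINS1, POLE2, E2F2 and UHRF1 have 1 word in a window. ORC1, MCM10, CDC45, RRM2 and CHAF1A have none before the start. Among members that rose in a KMS line, ORC3 has 1 word. ORC4, ORC5, PRIM2, POLD1, RFC1 and RPA1 have none before the start. A match of letters is a description and not a measured site.
MCM6 (chr2:135876444-135876603, minus strand): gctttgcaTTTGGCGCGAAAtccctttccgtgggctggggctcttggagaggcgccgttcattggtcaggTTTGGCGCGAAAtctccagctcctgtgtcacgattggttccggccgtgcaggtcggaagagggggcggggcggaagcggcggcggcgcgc
E2F1 (chr20:33686405-33686505, minus strand): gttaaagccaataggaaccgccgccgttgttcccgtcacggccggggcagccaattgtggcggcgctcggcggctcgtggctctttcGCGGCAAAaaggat
E2F2 (chr1:23531234-23531353, minus strand): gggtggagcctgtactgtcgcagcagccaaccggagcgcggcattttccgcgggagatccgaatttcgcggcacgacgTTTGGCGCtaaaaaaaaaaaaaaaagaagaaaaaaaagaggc
PCNA (chr20:5126627-5126742, minus strand): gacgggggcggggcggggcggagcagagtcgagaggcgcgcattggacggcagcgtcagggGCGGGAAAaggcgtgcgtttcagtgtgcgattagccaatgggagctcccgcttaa
POLA1 (chrX:24693768-24693917, plus strand): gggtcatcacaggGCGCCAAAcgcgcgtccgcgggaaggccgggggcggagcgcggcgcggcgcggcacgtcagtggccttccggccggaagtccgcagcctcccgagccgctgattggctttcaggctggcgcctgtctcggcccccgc
RRM1 (chr11:4094565-4094684, plus strand): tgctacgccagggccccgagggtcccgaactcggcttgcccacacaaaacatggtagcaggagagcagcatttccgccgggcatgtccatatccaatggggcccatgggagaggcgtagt
ORC4 (chr2:148021605-148021711, minus strand): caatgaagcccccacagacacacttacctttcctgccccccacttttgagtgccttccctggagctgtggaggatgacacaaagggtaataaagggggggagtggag
PRIM2 (chr6:57314685-57314804, plus strand): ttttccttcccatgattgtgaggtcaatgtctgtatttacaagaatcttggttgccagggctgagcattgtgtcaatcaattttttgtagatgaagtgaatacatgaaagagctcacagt

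Of the 9 origin licensing genes, 4 fell and 2 rose in KMS-11, where 21.2% and 17.3% of all genes did. In KMS-12, 5 fell and 2 rose, where 25.7% and 20.2% of all genes did. In RPMI8226, 6 rose, where 13.6% of all genes did. CDC6 (ENSG00000094804, chr17:40287633-40304657, plus strand, GENCODE 29), the ATPase that helps load MCM, stood at 40.5 and 52.0 CPM in KMS-11 DMSO and at 3.66 and 3.25 CPM with JQ1, 13.3-fold lower (log2 change -3.73 ± 0.20 SE, adjusted p = 3.38e-10). In KMS-12 it went from 26.9 and 28.0 CPM to 5.3 and 7.95 CPM, 4.15-fold lower (-2.05 ± 0.18, adjusted p = 6.35e-08). In RPMI8226 it went from 29.1 and 36.3 CPM to 50.7 and 52.8 CPM (0.66 ± 0.16, adjusted p = 0.00438). The groups did not overlap in any line, and the fall was deeper in KMS-11 than in KMS-12 by 1.68 on the log2 scale (adjusted p = 0.000171).

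CDT1, the partner of CDC6 in loading, was at 21.1 and 40.5 CPM in KMS-11 DMSO and at 0.856 and 1.01 CPM with JQ1, 32.9-fold lower (-5.04 ± 0.37, adjusted p = 9.16e-07). In KMS-12 it went from 34.7 and 26.3 CPM to 2.22 and 3.47 CPM, 10.7-fold lower (-3.42 ± 0.32, adjusted p = 3.83e-06). In RPMI8226 it was at 25.0 and 22.3 CPM and then at 31.0 and 31.7 CPM (0.41 ± 0.26, adjusted p = 0.278), so JQ1 libraries were higher there but did not pass the test. GMNN encodes geminin, the inhibitor of CDT1, and its RNA took another course. Its log2 change was -0.35 in KMS-11 (adjusted p = 0.139) and -0.14 in KMS-12 (adjusted p = 0.531), and it rose 2.42-fold in RPMI8226, from 13.9 and 13.3 CPM to 31.2 and 34.5 CPM (1.27 ± 0.17, adjusted p = 1.91e-05).

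ORC1, the subunit of the origin recognition complex that is regulated in the cell cycle, went from 14.6 and 28.6 CPM to 1.95 and 2.19 CPM in KMS-11, 10.4-fold lower (-3.38 ± 0.28, adjusted p = 2.12e-07). In KMS-12 it went from 16.7 and 14.6 CPM to 2.63 and 3.10 CPM, 5.46-fold lower (-2.45 ± 0.27, adjusted p = 2.38e-06), and in RPMI8226 from 23.8 and 22.6 CPM to 28.1 and 31.2 CPM (0.35 ± 0.23, adjusted p = 0.265). ORC6 fell 3.76-fold in KMS-11 and 4.25-fold in KMS-12 and rose 2.51-fold in RPMI8226 (adjusted p = 0.00552), with a change of -1.27 in KMS-11 without DMSO replicate 2. The log2 changes of ORC2, ORC3, ORC4 and ORC5, which stay on chromatin as a core, lay between -0.28 and 0.90 in the 3 lines. ORC4 rose in each, from 19.0 and 19.2 CPM to 28.9 and 23.1 CPM in KMS-11, from 49.7 and 48.2 CPM to 90.9 and 91.9 CPM in KMS-12, and from 34.3 and 34.9 CPM to 54.9 and 58.2 CPM in RPMI8226. Its log2 changes were 0.45, 0.90 and 0.71 (adjusted p = 0.0047, 2.41e-06 and 9.66e-05), and with library size alone they stayed above zero in the KMS lines, at 0.19 and 0.13, without passing the test. The rise of ORC4 in KMS-11 did not pass without JQ1 replicate 1 (adjusted p = 0.129).

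ORC5 rose in KMS-11 (0.51 ± 0.11, adjusted p = 0.0013) and not in KMS-12 (-0.07, adjusted p = 0.644), a difference of -0.58 that passed (adjusted p = 0.0123). In KMS-12 the small fall of ORC2 (-0.28, adjusted p = 0.0317) and rise of ORC3 (0.30, adjusted p = 0.019) did not pass without JQ1 replicate 1 (adjusted p = 0.143 and 0.0854), and ORC3 was at -0.47 there with library size alone. Without RPMI8226 DMSO replicate 1, the rises of ORC3, ORC5, ORC6 and CDC6 in that line did not pass (adjusted p = 0.144, 0.233, 0.0527 and 0.0762). Those of ORC3 and ORC5 were lost in 8 and 10 of the 12 fits that left out 1 library.

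In RPMI8226, 10 of the 14 genes of the helicase and its activation rose, where 13.6% of all genes did. In each KMS line the same 12 fell, where 21.2% (KMS-11) and 25.7% (KMS-12) of all genes did. The other two, CDC7 and DBF4, encode the kinase that starts the loaded helicase and its activator, and they passed the test in neither KMS line. All 14 responded higher in RPMI8226 than the mean of the KMS lines, by 0.61 to 5.82 on the log2 scale. MCM6, a subunit of the MCM2 to MCM7 ring, went from 39.0 and 51.4 CPM to 16.9 and 17.3 CPM in KMS-11, 2.65-fold lower (-1.40 ± 0.13, adjusted p = 1.45e-07). In KMS-12 it went from 107 and 113 CPM to 41.7 and 44.3 CPM, 2.55-fold lower (-1.35 ± 0.12, adjusted p = 7.18e-08), and in RPMI8226 from 110 and 123 CPM to 137 and 158 CPM (0.34 ± 0.12, adjusted p = 0.0316).

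All 6 ring subunits fell in both KMS lines, with log2 changes from -1.35 for MCM6 to -0.75 for MCM7 in KMS-12 and from -1.79 for MCM2 to -0.66 for MCM3 in KMS-11. MCM3 went from 81.1 and 112 CPM to 63.2 and 59.6 CPM in KMS-11, from 84.9 and 83.9 CPM to 47.2 and 45.4 CPM in KMS-12, and from 97.8 and 110 CPM to 176 and 193 CPM in RPMI8226. Its changes of -0.66 ± 0.12, -0.87 ± 0.12 and 0.83 ± 0.12 all passed (adjusted p = 0.000385, 1.8e-05 and 5.45e-05), and no groups overlapped. MCM4 went from 43.0 and 75.2 CPM to 18.6 and 18.2 CPM in KMS-11, from 77.0 and 73.9 CPM to 39.9 and 42.3 CPM in KMS-12, and from 47.0 and 49.6 CPM to 108 and 122 CPM in RPMI8226. Its rise of 2.38-fold there was the largest among the ring genes, with adjusted p = 0.000508.

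MCM7 fell 2.92-fold in KMS-11, from 119 and 162 CPM to 51.2 and 45.0 CPM, and 1.68-fold in KMS-12, from 98.9 and 94.9 CPM to 49.9 and 65.6 CPM (adjusted p = 5.2e-07 and 0.000401). It rose 1.5-fold in RPMI8226, from 122 and 118 CPM to 183 and 177 CPM (adjusted p = 0.00397), and its fall was deeper in KMS-11 than in KMS-12 by 0.80 (adjusted p = 0.00886). MCM2 and MCM5 fell in both KMS lines and rose 1.69-fold and 1.52-fold in RPMI8226. Without KMS-11 DMSO replicate 2 the change there was -0.38 for MCM3 and -0.53 for MCM5, still past the threshold. The rises of MCM2, MCM5 and MCM6 in RPMI8226 were lost in 6, 1 and 3 of the 12 fits that left out 1 library. Without RPMI8226 DMSO replicate 1 they were 0.69, 0.46 and 0.26. That of MCM6 also did not pass with DESeq2 or RLE scaling.

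CDC45, which joins MCM and GINS in the moving helicase, came close to the floor in the treated KMS lines. CDC45 (ENSG00000093009, chr22:19479459-19520612, plus strand) was at 7.20 and 12.1 CPM in KMS-11 DMSO and at 0.285 and 0.112 CPM with JQ1, from 6 and 2 reads, 45.8-fold lower (-5.52 ± 0.46, adjusted p = 4.99e-08). In KMS-12 it went from 7.38 and 8.12 CPM to 0.202 and 0.631 CPM, from 4 and 12 reads, 18.5-fold lower (-4.21 ± 0.41, adjusted p = 2.13e-07). In RPMI8226 it went from 3.01 and 4.30 CPM to 7.27 and 6.95 CPM (0.95 ± 0.30, adjusted p = 0.0224). At so few reads the size of the falls is loosely fixed, at -6.36 in KMS-11 without JQ1 replicate 1 and at -3.60 and -5.22 in KMS-12 without JQ1 replicates 1 and 2, though every treated library was far below every control. The rise did not pass without RPMI8226 DMSO replicate 1 (adjusted p = 0.188), and the call was lost in 3 of the 12 fits that left out 1 library.

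GINS1 to GINS4 encode the ring that holds CDC45 to MCM. GINS2 went from 10.2 and 15.8 CPM to 0.761 and 1.29 CPM in KMS-11, 12.8-fold lower (-3.67 ± 0.34, adjusted p = 1.68e-07), and from 4.56 and 4.44 CPM to 1.06 and 1.68 CPM in KMS-12, 3.28-fold lower (-1.71 ± 0.33, adjusted p = 0.000373). It went from 4.49 and 6.74 CPM to 9.10 and 12.2 CPM in RPMI8226 (0.91 ± 0.28, adjusted p = 0.0169). That rise was lost in 2 of the 12 fits without 1 library and was 0.65 without RPMI8226 DMSO replicate 1. GINS1 fell 6.99-fold and 5.64-fold in the KMS lines, GINS3 2.76-fold and 1.93-fold, and GINS4 1.78-fold and 1.72-fold, so the 4 subunits did not change by the same amount. GINS1 was at -2.07 (4.19-fold lower) in KMS-11 without DMSO replicate 2. In RPMI8226, GINS4 rose 2.54-fold (adjusted p = 0.000853), while GINS1 and GINS3 were at 0.57 and 0.63 (adjusted p = 0.212 and 0.0675). In KMS-12 the falls of GINS3 and GINS4 did not pass without JQ1 replicate 1 (adjusted p = 0.127 and 0.0835), and in KMS-11 that of GINS4 was -0.27 without DMSO replicate 2 (adjusted p = 0.469).

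MCM10, a helicase activator, fell 27.6-fold in KMS-11 and 10.3-fold in KMS-12, where its JQ1 libraries held 0.808 and 3.21 CPM. In KMS-11 the fall was 15.6-fold without DMSO replicate 2, and in KMS-12 it was 6.39-fold without JQ1 replicate 1 and 25.1-fold without JQ1 replicate 2, all past the threshold. In RPMI8226 it went from 11.4 and 11 CPM to 26.5 and 27.7 CPM (1.27 ± 0.50), with an adjusted p of 0.0948 although the groups did not overlap. The spread is estimated over all groups, and libraries lay apart in KMS-11 DMSO (12.7 and 31.9 CPM) and in KMS-12 JQ1 (0.808 and 3.21 CPM). The part of either group in this result was not tested. CDC7 rose 2.30-fold in RPMI8226 (adjusted p = 0.000532), and DBF4 was at 0.39 (adjusted p = 0.0717).

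**Figure D3:**
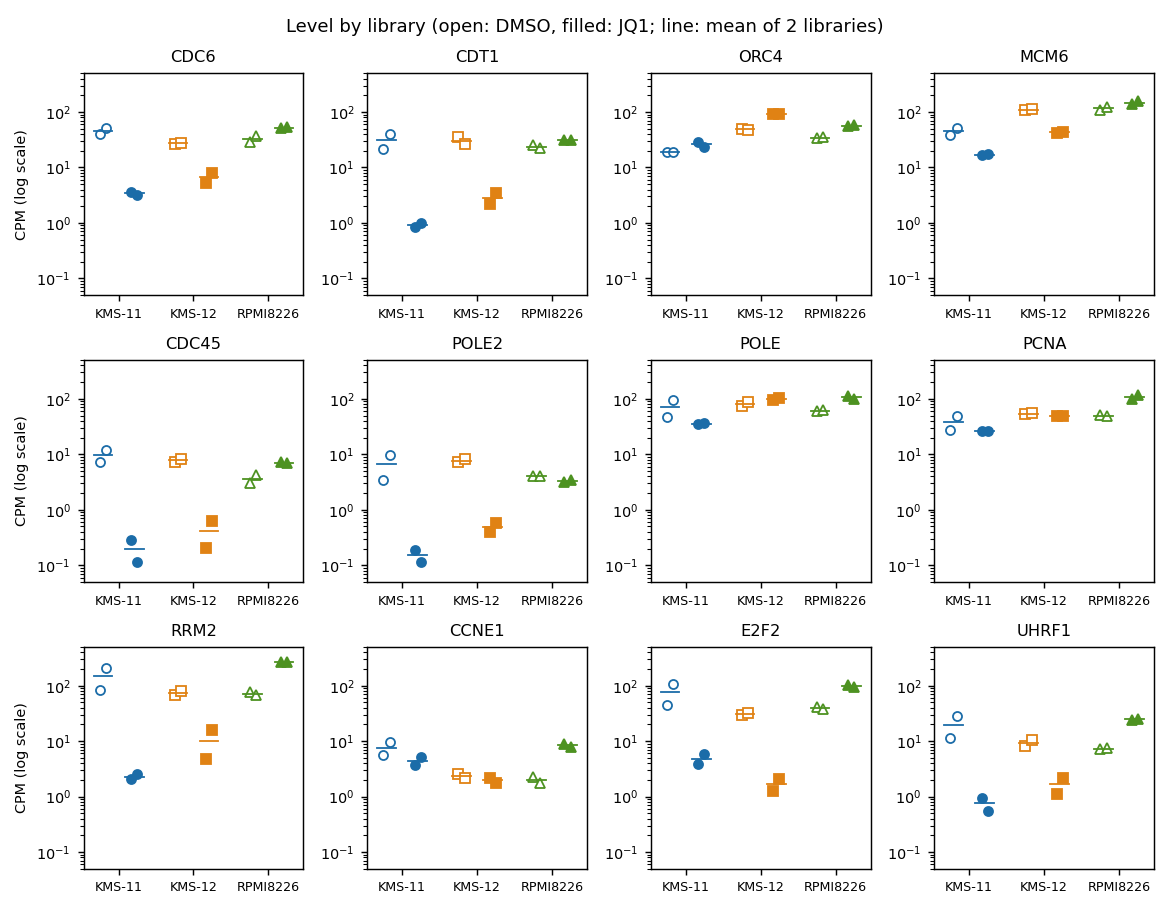
Level in CPM (vertical axis, log scale) of 12 of the genes in each of the 12 libraries, with open symbols for DMSO, filled symbols for JQ1 and a line at the mean of each group of 2. CDC45 and POLE2 in the treated KMS lines lie below 1 CPM, and RRM2, CCNE1, E2F2, PCNA and UHRF1 in RPMI8226 lie above their controls with JQ1.

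The polymerase genes divided by subunit. In KMS-11, 7 of 9 fell and PRIM2 rose, where 21.2% and 17.3% of all genes did. In KMS-12, 3 fell and 2 rose, near the shares of all genes (25.7% and 20.2%). In RPMI8226, 5 rose, where 13.6% of all genes did. POLE2, the second subunit of the leading strand polymerase epsilon, went from 3.41 and 9.77 CPM to 0.190 and 0.112 CPM in KMS-11, from 4 and 2 reads, 41.1-fold lower (-5.36 ± 0.58, adjusted p = 2.42e-06), and 21.1-fold lower without DMSO replicate 2. In KMS-12 it went from 7.16 and 8.08 CPM to 0.404 and 0.579 CPM, from 8 and 11 reads, 15.4-fold lower (-3.94 ± 0.47, adjusted p = 4.4e-06). In RPMI8226 it was at 4.05 and 4.10 CPM and then at 3.14 and 3.39 CPM (-0.32 ± 0.38, adjusted p = 0.563), the one member whose treated libraries both lay below the controls in that line.

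POLE, the catalytic subunit of the same enzyme, was at 47.5 and 93.9 CPM and then at 35.0 and 36.6 CPM in KMS-11 (-0.98 ± 0.27, adjusted p = 0.0218), and at 75.5 and 86.1 CPM and then 97.3 and 105 CPM in KMS-12 (0.32 ± 0.26, adjusted p = 0.365). The responses of POLE in these lines differed by 1.31 (adjusted p = 0.0454). In RPMI8226 it rose from 59.5 and 62.2 CPM to 113 and 101 CPM with an adjusted p of 0.0499, lost in 10 of the 12 fits without 1 library (up to adjusted p = 0.21).

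The primase that starts each new strand has 2 subunits, and their RNAs parted. PRIM1, the catalytic one, fell 2.84-fold in KMS-11, from 10.7 and 14.1 CPM to 4.85 and 3.81 CPM, and 2.9-fold in KMS-12, from 23.6 and 23.3 CPM to 7.42 and 8.74 CPM (adjusted p = 2.03e-05 and 5.09e-06). In RPMI8226 it was at 16.5 and 21.4 CPM and then at 17.5 and 23.1 CPM, with overlapping groups (0.09 ± 0.19, adjusted p = 0.762). PRIM2, the large one, rose in all lines, from 15.1 and 19.1 CPM to 23.0 and 21.7 CPM in KMS-11, from 27.5 and 25.1 CPM to 50.4 and 50 CPM in KMS-12, and from 15.3 and 16.9 CPM to 32.9 and 36.2 CPM in RPMI8226. Its log2 changes were 0.39, 0.93 and 1.10 (adjusted p = 0.0298, 1.3e-05 and 8.32e-06), and with library size alone they were 0.13 and 0.16 in the KMS lines, not past the threshold. The rise in KMS-11 did not pass without DMSO replicate 1 (adjusted p = 0.251) or without JQ1 replicate 1 (adjusted p = 0.14).

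POLA2, the regulatory subunit of polymerase alpha, fell 2.45-fold in KMS-11, from 10.3 and 14.4 CPM to 4.76 and 5.27 CPM, and 1.66-fold in KMS-12, from 29.9 and 28.1 CPM to 17.5 and 17.4 CPM (adjusted p = 1.3e-05 and 0.000866). It rose 1.70-fold in RPMI8226, from 13.8 and 14.2 CPM to 23.4 and 24.2 CPM (adjusted p = 0.00122). POLA1, the catalytic subunit, changed by -0.40, -0.22 and 0.51 in turn for KMS-11, KMS-12, RPMI8226 (adjusted p = 0.0398, 0.235 and 0.0123). POLD1, the catalytic subunit of polymerase delta, fell in KMS-11 (-0.49, adjusted p = 0.0143), rose in RPMI8226 (0.80, adjusted p = 0.000532) and rose in KMS-12 (0.64, adjusted p = 0.00248; -0.13 with library size alone). The KMS responses of POLD1 differed by 1.14 (adjusted p = 0.00102). POLD3 fell in KMS-11 (-0.93, adjusted p = 0.00169) and was at -0.41 and 0.46 in KMS-12 and RPMI8226 (adjusted p = 0.0883 and 0.0759). POLD2, whose 12 libraries ranged from 65.7 to 144 CPM, changed by 0.03, -0.03 and 0.16 without passing. Without KMS-11 DMSO replicate 2 the falls of POLA1 and POLD1 there were -0.09 and -0.15 (adjusted p = 0.649 and 0.399), those of POLD3 and POLE were -0.47 and -0.39, and without JQ1 replicate 1 POLE did not pass (adjusted p = 0.133). The rise of POLA1 in RPMI8226 was lost in 2 of the 12 fits without 1 library and was 0.41 without RPMI8226 DMSO replicate 1.

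Of the 11 clamp loading and strand processing genes, 6 fell in KMS-11, where 21.2% of all genes did. In KMS-12, 3 fell and 3 rose, near the shares of all genes (25.7% and 20.2%). In RPMI8226, 8 rose, where 13.6% of all genes did. FEN1 (ENSG00000168496, chr11:61792637-61797244, plus strand), the flap nuclease that trims Okazaki fragments, fell 2.41-fold in KMS-11, from 23.9 and 40.2 CPM to 12.4 and 14.1 CPM (-1.27 ± 0.18, adjusted p = 3.75e-05). In KMS-12 it fell 2.12-fold, from 30.6 and 29.1 CPM to 14.1 and 14.0 CPM (adjusted p = 0.000115), and in RPMI8226 it rose 1.81-fold, from 33.8 and 34.2 CPM to 62.2 and 60.7 CPM (adjusted p = 0.00121). Its exons overlap those of FADS2 and TMEM258 in the annotation, and whether counting used the strand is not given. LIG1, which seals the fragments, fell in KMS-11 (-1.05, adjusted p = 0.0383) and rose 2.68-fold in RPMI8226 (adjusted p = 0.0123). Its call in KMS-11 was lost in 10 of the 12 fits without 1 library (up to adjusted p = 0.213). PCNA, the clamp, rose 2.19-fold in RPMI8226, from 50.7 and 48.4 CPM to 97.9 and 119 CPM (adjusted p = 0.00138), and was at -0.55 and -0.11 in the KMS lines (adjusted p = 0.0563 and 0.715).

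The clamp loader has a large subunit, RFC1, and 4 small ones, which differed. RFC1 was at 94.8 and 115 CPM and then at 85.0 and 85.1 CPM in KMS-11 (-0.30 ± 0.10, adjusted p = 0.0244), and at 78.0 and 73.1 CPM and then 65.6 and 73.4 CPM in RPMI8226 (-0.12, adjusted p = 0.408). In KMS-12 it rose from 122 and 123 CPM to 183 and 178 CPM (0.56 ± 0.10, adjusted p = 0.000164), and this was -0.21 with library size alone. The response in KMS-12 lay above that in KMS-11 by 0.86 (adjusted p = 0.000257), and the response in RPMI8226 minus that in KMS-12 was -0.68 (adjusted p = 0.00194). RFC4 fell in both KMS lines, from 20.1 and 28.5 CPM to 15.4 and 12.5 CPM and from 21.5 and 23.1 CPM to 10.9 and 12.4 CPM, and went from 20.5 and 20.3 CPM to 25.8 and 30.2 CPM in RPMI8226. Its log2 changes were -0.80, -0.94 and 0.46 (adjusted p = 0.00112, 0.000214 and 0.0446), and the rise was lost in 13 of 21 alternatives, 8 of them the fits without 1 library (up to adjusted p = 0.249). RFC3 fell 2.33-fold and 2.79-fold in the KMS lines, RFC5 fell in KMS-11 (-0.50), and RFC2, RFC3 and RFC5 rose 1.68-fold, 1.76-fold and 1.82-fold in RPMI8226.

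RPA1, RPA2 and RPA3 encode RPA, the complex that covers single-stranded DNA at the fork. RPA1 was at 50.7 and 51.6 CPM and then at 50.3 and 50.4 CPM in KMS-11, rose from 65.3 and 65.8 CPM to 88.9 and 87.3 CPM in KMS-12 (0.43, adjusted p = 0.000907; -0.34 with library size alone), and rose from 50.5 and 51.8 CPM to 68.4 and 76.5 CPM in RPMI8226 (0.50, adjusted p = 0.000454). RPA2 rose in KMS-12 (0.53, adjusted p = 0.001; -0.24 with library size alone), and RPA3 passed in no line. In this group, without KMS-11 DMSO replicate 2, the changes of RFC1, RFC5 and LIG1 in KMS-11 were -0.14, -0.17 and -0.38, and those of RFC3, RFC4 and FEN1 were -0.63, -0.51 and -0.83. RFC1, RFC5 and LIG1 also did not pass there without JQ1 replicate 1 (adjusted p = 0.0934, 0.239 and 0.213). The rises of RFC2, RFC3, RFC4 and LIG1 in RPMI8226 were lost in 3, 4, 8 and 3 of the 12 fits without 1 library. Without DMSO replicate 1 of that line they were 0.58, 0.79, 0.46 and 1.33.

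All 3 nucleotide supply genes fell in KMS-11 (21.2% of all genes), 2 fell in KMS-12 (25.7%), and 2 rose in RPMI8226 (13.6%). RRM2, the subunit of ribonucleotide reductase made in S phase, had the largest fall of all members in KMS-11. It went from 85.0 and 213 CPM to 2.09 and 2.52 CPM in KMS-11, 64.6-fold lower (-6.01 ± 0.75, adjusted p = 0.000943), and from 68.0 and 78.7 CPM to 4.69 and 15.6 CPM in KMS-12, 7.26-fold lower (-2.86 ± 0.61, adjusted p = 0.00913). In RPMI8226 it rose 3.72-fold, from 76.1 and 68.5 CPM to 271 and 267 CPM (1.90 ± 0.55, adjusted p = 0.0411). The fall was 36.5-fold without KMS-11 DMSO replicate 2, and in KMS-12 it was 4.71-fold without JQ1 replicate 1 and 15.5-fold without JQ1 replicate 2. The libraries of RPMI8226 lay close together and far apart between the groups. The call there was nevertheless lost in 8 of the 12 fits without 1 library (up to adjusted p = 0.185).

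RRM1, the large subunit, fell 3.05-fold in KMS-11, from 41.1 and 82.6 CPM to 19.8 and 20.7 CPM, and 2.34-fold in KMS-12, from 83.4 and 83.8 CPM to 35.9 and 35.5 CPM (adjusted p = 0.00153 and 0.00456). In RPMI8226 it was at 32.9 and 31.4 CPM and then at 43.1 and 51.0 CPM (0.55, adjusted p = 0.157). DUT (ENSG00000128951, chr15:48331011-48343373, plus strand), the dUTPase that keeps uracil out of DNA, changed less. It went from 34.3 and 44.9 CPM to 29.9 and 29.4 CPM in KMS-11 (-0.42 ± 0.13, adjusted p = 0.0133), from 45.0 and 40.4 CPM to 40.5 and 34.5 CPM in KMS-12 (-0.19, adjusted p = 0.236), where the groups overlapped, and from 67.9 and 67.9 CPM to 102 and 106 CPM in RPMI8226 (0.61, adjusted p = 0.000817). Without KMS-11 DMSO replicate 2 the change of RRM1 there was -1.0 and that of DUT -0.19 (adjusted p = 0.246 for DUT).

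The regulators of S phase entry all rose in RPMI8226, as did 13.6% of all genes, and divided in the KMS lines. E2F1 (ENSG00000101412, chr20:33675683-33686404, minus strand), a factor that activates many of the genes described here, fell 3.99-fold in KMS-11, from 45.4 and 80.0 CPM to 12.7 and 18.7 CPM (-2.0 ± 0.26, adjusted p = 0.000118). It fell 7.82-fold in KMS-12, from 17.7 and 19.2 CPM to 1.82 and 2.89 CPM (-2.97 ± 0.32, adjusted p = 1.74e-05), and rose 1.88-fold in RPMI8226, from 18.5 and 19.1 CPM to 34.8 and 35.9 CPM (adjusted p = 0.0196). E2F2 went from 44.2 and 109 CPM to 3.81 and 5.78 CPM in KMS-11 and from 29.1 and 32.0 CPM to 1.26 and 2.05 CPM in KMS-12, 16.1-fold and 18.5-fold lower (adjusted p = 0.00058 and 0.000685), and 9.22-fold lower in KMS-11 without DMSO replicate 2. In RPMI8226 it rose 2.48-fold, from 40.9 and 38.1 CPM to 102 and 94.2 CPM (adjusted p = 0.0453).

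The 2 cyclin E genes, whose proteins drive CDK2 at the start of S phase, moved in opposite directions in KMS-11. Both rose in RPMI8226, and neither passed the test in KMS-12. CCNE1 went from 5.53 and 9.56 CPM to 3.66 and 5.10 CPM in KMS-11 (-0.79 ± 0.28, adjusted p = 0.0313), from 2.57 and 2.15 CPM to 2.17 and 1.74 CPM in KMS-12 (-0.27, adjusted p = 0.537), and rose 4.29-fold in RPMI8226, from 2.22 and 1.74 CPM to 8.96 and 7.96 CPM (2.10 ± 0.30, adjusted p = 3.68e-05). CCNE2 rose 2.69-fold in KMS-11, from 14.9 and 24.4 CPM to 48.1 and 57.7 CPM (1.43 ± 0.23, adjusted p = 0.000165), and 2.39-fold in RPMI8226, from 7.21 and 11.3 CPM to 20.2 and 24.5 CPM (adjusted p = 0.000995). In KMS-12 it was at 7.77 and 8.59 CPM and then at 6.31 and 6.37 CPM (-0.37, adjusted p = 0.261), and the difference between the KMS responses was -1.80 (adjusted p = 0.00154). CCNE2 was the member with the largest rise in KMS-11. The fall of CCNE1 in KMS-11 did not pass without DMSO replicate 2 or JQ1 replicate 1 (adjusted p = 0.43 and 0.238). The rises of E2F1 and E2F2 in RPMI8226 were lost in 4 and 10 of the 12 fits without 1 library. Without DMSO replicate 1 of that line they were 0.89 and 1.36.

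Of the 4 fork protection genes, 1 fell in KMS-11, near the share of all genes (21.2%). In KMS-12 2 fell (25.7% of all genes), and 3 rose in RPMI8226 (13.6%). The largest rise of a single member in RPMI8226 was that of CLSPN. CLSPN, or claspin, which links the moving fork to the checkpoint kinase, rose 5.50-fold there, from 13.1 and 15.4 CPM to 81.0 and 76.2 CPM (2.46 ± 0.40, adjusted p = 0.00263). It was at 12.5 and 33.1 CPM and then at 10.3 and 11.3 CPM in KMS-11 (-1.07, adjusted p = 0.0736), and at 18.3 and 21.7 CPM and then 18.5 and 21.4 CPM in KMS-12, where the groups overlapped. TIMELESS, which works with TIPIN and claspin, rose 2.45-fold in RPMI8226 (adjusted p = 0.00411) and was at -0.13 and 0.27 in the KMS lines. TIPIN fell 1.94-fold in KMS-12, from 9.19 and 10.7 CPM to 4.95 and 5.31 CPM (adjusted p = 0.000548), was at 7.93 and 9.25 CPM and then 5.85 and 6.34 CPM in KMS-11 (-0.50, adjusted p = 0.0508), and at 14.5 and 16.2 CPM and then 17.6 and 23.3 CPM in RPMI8226 (0.41, adjusted p = 0.0866). WDHD1 (ENSG00000198554, chr14:54938950-55027105, minus strand), the hub that ties polymerase alpha to the helicase, fell 2.60-fold in KMS-11, from 18.0 and 28.8 CPM to 9.32 and 8.64 CPM, and 1.86-fold in KMS-12, from 16.8 and 15.6 CPM to 7.27 and 10.1 CPM (adjusted p = 3.3e-05 and 0.0014). It rose 1.69-fold in RPMI8226, from 19.4 and 20.8 CPM to 32.1 and 35.8 CPM (adjusted p = 0.00567), and this did not pass without DMSO replicate 1 (adjusted p = 0.0532).

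The genes that restore chromatin behind the fork all rose in RPMI8226, as did 13.6% of all genes. In each KMS line 2 of 3 fell, where 21.2% (KMS-11) and 25.7% (KMS-12) of all genes did. CHAF1A (ENSG00000167670, chr19:4402662-4445018, plus strand), the large subunit of the histone chaperone CAF-1, fell 4.36-fold in KMS-11, from 29.4 and 47.6 CPM to 8.66 and 8.97 CPM, and 4.51-fold in KMS-12, from 46.3 and 48.4 CPM to 8.43 and 12.6 CPM (adjusted p = 2.77e-06 and 1.25e-06). It rose 2.05-fold in RPMI8226, from 25.8 and 26.6 CPM to 51.8 and 55.4 CPM (adjusted p = 0.00113). CHAF1B, the middle subunit, rose 1.78-fold in RPMI8226, from 8.84 and 10.1 CPM to 16.1 and 17.6 CPM (adjusted p = 0.00206). It was at 6.23 and 7.79 CPM and then 4.57 and 5.44 CPM in KMS-11 (-0.49, adjusted p = 0.0621), and at 15.8 and 20.2 CPM and then 15.6 and 17.9 CPM in KMS-12 (-0.10, adjusted p = 0.7). UHRF1, which brings the maintenance methyltransferase to new DNA, fell 25.3-fold in KMS-11, from 11.3 and 27.9 CPM to 0.951 and 0.561 CPM, and 5.63-fold in KMS-12, from 8.19 and 10.5 CPM to 1.11 and 2.21 CPM (adjusted p = 5.05e-05 and 0.00135), with a 14.4-fold fall in KMS-11 without DMSO replicate 2. It rose 3.36-fold in RPMI8226, from 7.26 and 7.49 CPM to 24.5 and 25.1 CPM (1.75 ± 0.39, adjusted p = 0.00622). That call was lost in 2 of the 12 fits without 1 library, with a change of 1.73 without RPMI8226 DMSO replicate 1.

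The DMSO level differed between the 3 lines for 36 of the 57 members, a smaller share than the 80.2% of all genes tested. Part of the spread in this test comes from KMS-11 DMSO. Its replicate 2 lay above replicate 1 for all 57 members, by a median of 0.69 on the log2 scale. The count also changed with the library left out, so the smaller share is not read as a trait of these genes. Per kb of exon, the levels in KMS-11 ran from 32.1 CPM for MCM7 to 1.33 CPM for GINS4, in KMS-12 from 36.6 CPM for PCNA to 0.924 CPM for CCNE1, and in RPMI8226 from 33.8 CPM for POLD2 to 0.776 CPM for CCNE1. MCM7, POLD2 and RRM2 led in KMS-11 at 32.1 ± 6.95, 30.1 ± 0.747 and 27.9 ± 16.9 CPM per kb (SD, n = 2), which did not differ beyond their spread. In KMS-12, PCNA at 36.6 ± 0.807 stood above MCM6 at 26.7 ± 0.950. In RPMI8226, POLD2 at 33.8 ± 1.75 and PCNA at 33.7 ± 1.12 were alike within their spread. The length used counts every annotated exon of a gene, from 1471 bases for PCNA to 16609 for POLE. The order of genes within a line depends on it, and the SD does not cover this.

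The S phase entry regulators were higher in KMS-11 DMSO than in KMS-12 DMSO for all 4 genes, as were 32.7% of all genes. The log2 difference, KMS-12 minus KMS-11, was -1.77 for E2F1 (adjusted p = 9.68e-05), -1.32 for E2F2 (adjusted p = 0.0235), -1.67 for CCNE1 (adjusted p = 5.06e-05) and -1.26 for CCNE2 (adjusted p = 0.000281). Without KMS-11 DMSO replicate 2 these were -1.30, -0.53, -1.23 and -0.86, with E2F2 at an adjusted p of 0.00736, and without replicate 1 they were -2.13, -1.84, -2.02 and -1.59. In KMS-11 E2F1 stood at 25.1 ± 9.77 CPM per kb, against 7.36 ± 0.419 for KMS-12 and 7.51 ± 0.183 for RPMI8226. MCM6 was lower in KMS-11, at 11 ± 2.13 CPM per kb against 26.7 ± 0.950 and 28.2 ± 2.22 in KMS-12 and RPMI8226 (log2 differences 1.28 and 1.36, adjusted p = 3.54e-08 and 2.48e-08). POLD1 was lower in KMS-12 than in either other line, at 3.65 CPM per kb against 11 ± 3.16 and 9.22 ± 0.652. ORC3 was highest in KMS-12, at 21.1 ± 1.55 CPM per kb, then KMS-11 at 10.9 ± 0.274 and RPMI8226 at 7.07 ± 0.018. RRM1 was lower in RPMI8226, at 7.71 ± 0.252 CPM per kb, than in KMS-12 at 20.0 ± 0.0714 (adjusted p = 0.00154).

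**Figure D4:**
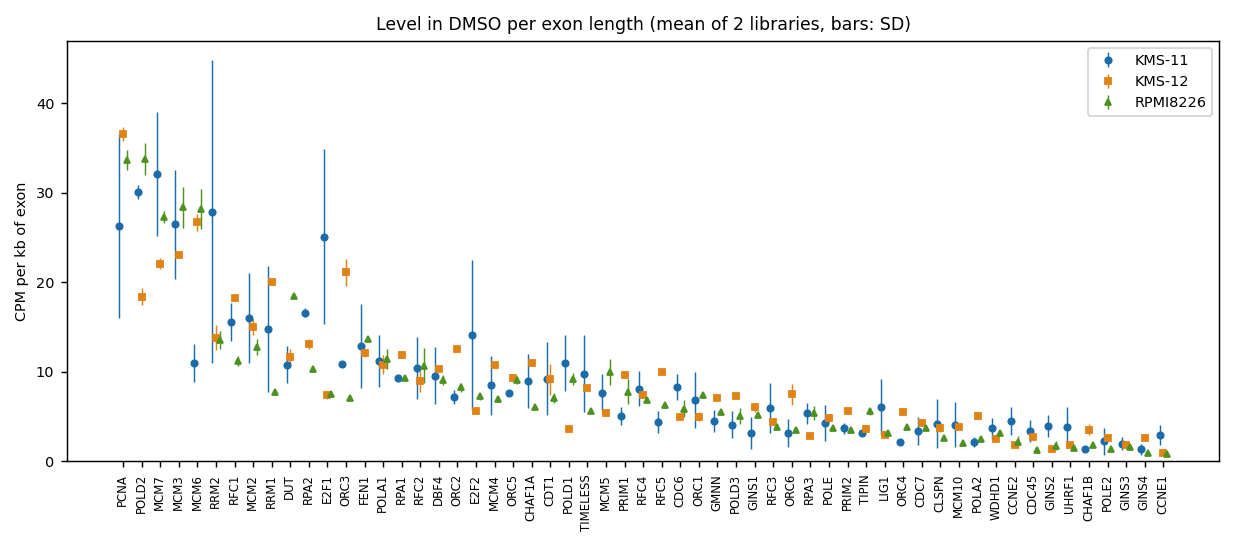
Level in DMSO in CPM per kb of exon (vertical axis, linear from 0; mean of 2 libraries with SD bars) of the 57 genes in order of their mean over KMS-11 (circles), KMS-12 (squares) and RPMI8226 (triangles). PCNA and POLD2 stand at the left and CCNE1 at the right, and the bars of KMS-11 are the widest for genes such as RRM2, at 27.9 ± 16.9 CPM per kb.

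The rest of the pathway was read from 42 other replication and S phase genes. In KMS-11, 25 fell and 11 rose, where 21.2% and 17.3% of all genes did. In KMS-12, 23 fell and 10 rose, where 25.7% and 20.2% of all genes did. In RPMI8226, 23 rose and none fell, where 13.6% of all genes rose and 18.6% fell. The medians were -0.63, -0.59 and 0.64. The largest falls in both KMS lines were those of E2F8, a repressor of the E2F family, CDC25A, the phosphatase that activates CDK2, and DSCC1, a subunit of an alternative clamp loader. E2F8 changed by -5.94 and -3.97 (adjusted p = 0.000272 and 0.00119), CDC25A by -4.33 and -3.53 (adjusted p = 2.07e-06 and 1.6e-06), and DSCC1 by -4.27 and -2.96 (adjusted p = 7.3e-07 and 4.12e-06). In KMS-11, E2F8 was at -4.81 and DSCC1 at -3.65 without DMSO replicate 2, and E2F8 at -6.56 without replicate 1. Reads were few with JQ1, at 7 and 4 in KMS-11 and 9 and 15 in KMS-12 for E2F8. DSCC1 had 6 and 10 in KMS-11 JQ1 and 19 and 24 in KMS-12 JQ1, so these sizes are loosely fixed. In RPMI8226, E2F8 and CDC25A did not pass (0.20 and 0.58) and DSCC1 rose (1.23, adjusted p = 0.00481).

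Rises in every line were seen for SAMHD1, which breaks down deoxynucleotides, POLE4, a small histone-fold subunit of polymerase epsilon, and LRWD1, which binds the origin recognition complex. SAMHD1 rose by 1.5, 2.16 and 1.68 in turn for KMS-11, KMS-12, RPMI8226 (adjusted p = 1.98e-05, 6.75e-07 and 1.5e-05), from a range of 31.5 to 52.5 CPM over the 6 DMSO libraries. POLE4 rose by 1.86, 1.19 and 1.77 (adjusted p = 2.05e-07, 1.59e-05 and 8.21e-07), while POLE2 of the same enzyme fell in the KMS lines. LRWD1 rose by 1.53, 0.86 and 1.13. TOP1, a topoisomerase, rose in KMS-11 and KMS-12 (0.71 and 1.07) and was at -0.06 in RPMI8226. In RPMI8226 the largest rises were those of RNASEH2A, a ribonuclease subunit at only 9 to 33 reads a library in that line, and of TYMS, thymidylate synthase, which rose by 1.86 (adjusted p = 0.0303) and fell by 3.60 in KMS-11 (by 2.58 without DMSO replicate 2 and by 4.2 without replicate 1) and by 1.69 in KMS-12.

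**Figure D5:**
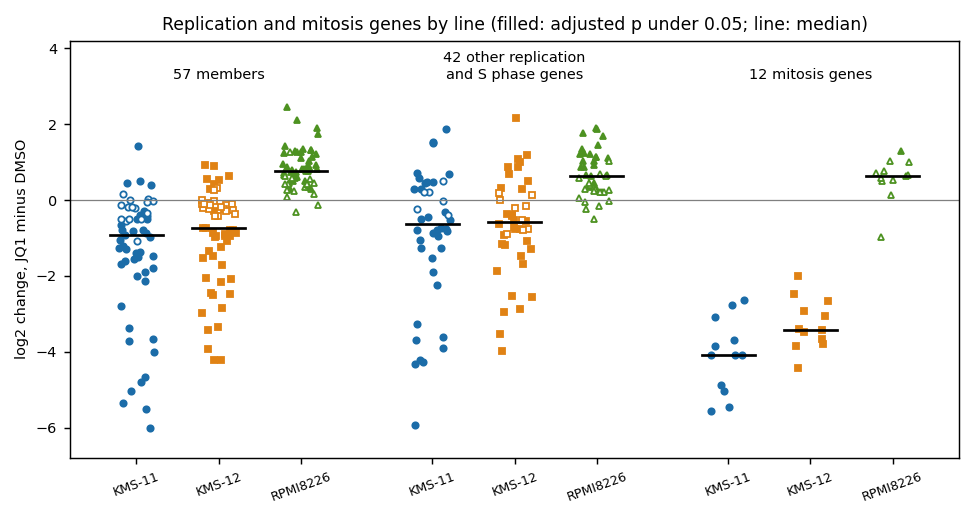
Log2 change with JQ1 (vertical axis) of the 57 members, the 42 other replication and S phase genes and 12 mitosis genes in each line, filled where the adjusted p was under 0.05, with a line at the median. The medians of the members are -0.93, -0.75 and 0.76 (KMS-11, KMS-12, RPMI8226), and those of the mitosis genes are -4.09, -3.41 and 0.65.

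The mitosis genes fell more deeply than the members in the KMS lines, with medians of -4.09 and -3.41, and their median in RPMI8226 was 0.65. AURKB, a mitotic kinase, changed by -5.45, -3.80 and 1.30 (adjusted p = 0.000373, 0.000367 and 0.0438). In RPMI8226, BUB1, CDC20 and MKI67 were at 1.00, 0.67 and 1.04 and did not pass (adjusted p = 0.136, 0.233 and 0.253).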

How the data were processed

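The authors deposited raw counts of reads, unscaled whole numbers by the file's values, per Ensembl gene ID. Per the labels' protocols, libraries were stranded and made from total RNA depleted of ribosomal RNA. Per the submitters' processing notes, the builds were hg38 and GRCh38.p13 and the tools included DESeq2 and MACS2, with no role given. Aligner, counter, annotation and strandedness of counting: not given in the sources used here. The 26 of 57 members whose exons overlap another annotated gene therefore have less certain values. Of 60666 IDs, 60437 were paired with a symbol.

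Genes were kept by edgeR's filterByExpr (minimum count 10, minimum total 15), which left 23493, and 19667 IDs had no read. Counts were fitted in edgeR 4.0.16 (R 4.3.3) with TMM scaling, 1 mean for each of 6 groups over 12 libraries (6 residual degrees of freedom), and robust quasi-likelihood F tests, Benjamini-Hochberg adjusted over all genes. SE was taken as the absolute log2 change over the root of F. CPM uses TMM-scaled library sizes, and CPM per kb divides by GENCODE 29 exon length. The scripts were tested on simulated counts with known changes in RPMI8226 JQ1 only. Unchanged genes made up 16 of 130 calls for JQ1 in RPMI8226. They made up 9 of 90 for RPMI8226 minus the KMS mean and 16 of 89 for a difference between the 3 lines. Of genes changed 1.5-fold, 26.9%, 7.46% and 2.99% were called in turn. For 2-fold changes it was 58.2%, 43.3% and 38.8%, and for 4-fold changes 86.4%, 71.2% and 68.2%.

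The members, the lists and the comparison of RPMI8226 with the mean of the KMS lines were chosen with earlier results of these data known. Values in every library are given for the members with the smallest adjusted p for a difference between lines (at most 3 in a role group) and for those called in opposite directions up to 12 in all; other members with such values were chosen after their values were seen. Of the other replication genes, the 3 largest rises and falls called in each line are named, and of the mitosis genes the 4 with the smallest adjusted p in RPMI8226. As alternatives, DESeq2 1.42.0, limma-voom (limma 3.58.1), a replicate block, 3 other scalings (library size alone, RLE, TMM without abundant classes), 2 other filters (none, mean of 10 CPM or more) and the omission of each library were tried. Library size without MALAT1 and NEAT1 was added after seeing the data. Libraries of a group differed beyond sampling noise in every group (chi-square per degree of freedom 5.64 to 22.3), and none was counted as a repeat of another. Promoter sequences are from RefSeq, GRCh38.p14.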

Additional observations from a re-analysis of the deposited data

Results flagged for a closer look

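The response to JQ1 of RPMI8226 minus the mean response of KMS-11 and KMS-12 passed edgeR's test of the difference itself for 46 members, all with a higher response in RPMI8226. These differences are on the log2 scale, from a comparison chosen with opposite directions in RPMI8226 already known. The sizes are listed by role, and groups of 2 libraries are too small for a test of outlying samples. For origin licensing the difference was 3.27 for ORC1, 3.33 for ORC6, 3.55 for CDC6, 4.64 for CDT1 and 1.52 for GMNN. For the helicase and its activators the difference was 2.15 for MCM2, 1.59 for MCM3, 2.53 for MCM4, 1.42 for MCM5, 1.72 for MCM6, 1.74 for MCM7, 5.35 for MCM10, 5.82 for CDC45, 3.22 for GINS1, 3.60 for GINS2, 1.84 for GINS3, 2.15 for GINS4, 1.42 for CDC7 and 0.61 for DBF4. For the polymerases the difference was 0.81 for POLA1, 1.78 for POLA2, 1.62 for PRIM1, 0.72 for POLD1, 1.13 for POLD3 and 4.33 for POLE2. For clamp loading and strand processing the difference was 1.46 for PCNA, 1.06 for RFC2, 2.17 for RFC3, 1.32 for RFC4, 1.18 for RFC5, 2.03 for FEN1, 2.10 for LIG1 and 0.71 for RPA3. For nucleotide supply the difference was 1.96 for RRM1, 6.33 for RRM2 and 0.91 for DUT. For the S phase entry regulators the difference was 2.63 for CCNE1, 3.39 for E2F1 and 5.42 for E2F2. For fork protection the difference was 3.0 for CLSPN, 1.22 for TIMELESS, 1.14 for TIPIN and 1.89 for WDHD1. For chromatin behind the fork the difference was 3.18 for CHAF1A, 1.13 for CHAF1B and 5.33 for UHRF1. The calls of DBF4, TIMELESS, RPA3, RFC2, LIG1 and POLD1 were lost in 10, 9, 5, 4, 2 and 2 of the 12 fits that left out 1 library (adjusted p up to 0.177, 0.119, 0.167, 0.128, 0.0693 and 0.0742).

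Between KMS-12 and KMS-11 the response differed by the same test for 12 members. The response of KMS-12 minus that of KMS-11 was 1.68 for CDC6, 1.62 for CDT1, 0.80 for MCM7, 1.96 for GINS2, 0.55 for PRIM2, 1.14 for POLD1, 1.31 for POLE, 0.86 for RFC1, 0.45 for RPA1 and 0.58 for RPA2, and it was -0.58 for ORC5 and -1.80 for CCNE2. The share called among all genes tested was 10.1% above and 9.87% below. POLE, CDT1 and PRIM2 passed narrowly (adjusted p = 0.0454, 0.0477 and 0.0482). These differences were not recomputed with a library left out or with the other settings. All of them use KMS-11 DMSO, whose libraries lay apart. The KMS-11 change of POLD1 was -0.76 without DMSO replicate 1 and -0.15 without DMSO replicate 2. That of PRIM2 was 0.23 and 0.58 in turn.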

How the results depend on the processing

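Of 4764 recomputed values of single members (4 comparisons, 21 alternatives), 4361 kept their direction and side of the threshold, 211 no longer passed, 142 newly passed, 42 moved across zero without a call and 8 turned. With library size alone, the values that turned were those of ORC3 (-0.47), POLD1 (-0.13), RFC1 (-0.21), RPA1 (-0.34) and RPA2 (-0.24) in KMS-12 and of POLD2 in KMS-11 (-0.23); ORC3 in KMS-12 was -0.00 without MALAT1 and NEAT1 in the library size, and TIMELESS in KMS-11 was 0.42 without DMSO replicate 2 (-0.53 without replicate 1). Library size alone left 1 member higher in KMS-11, 49 lower and 0 higher in KMS-12, and of the other replication genes 6 higher in KMS-11 and 35 lower and 3 higher in KMS-12. Without MALAT1 and NEAT1, 3 members were higher in KMS-12. At a mean of at least 10 CPM, 1 other gene was lower in RPMI8226. These settings change the scale or the genes tested. Calls of members held in all alternatives for 30 of 42 in KMS-11, 28 of 38 in KMS-12, 21 of 41 in RPMI8226 and 40 of 46 differences.

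Leaving out 1 library gave 29 to 47 members lower and 2 to 5 higher in KMS-11, 28 to 34 and 6 to 9 in KMS-12, and 0 to 0 and 21 to 50 in RPMI8226. For the other replication genes it gave 19 to 26 lower and 8 to 12 higher in KMS-11, 16 to 26 and 8 to 10 in KMS-12, and 0 to 1 and 13 to 29 in RPMI8226 (13 without its DMSO replicate 2, 15 without its JQ1 replicate 1). Responses differed between lines for 47 to 54 members, lay above the KMS mean in RPMI8226 for 41 to 50 and below it for 0 to 1, and DMSO levels differed for 31 to 50. A library left alone in its group is taken to have the spread of the remaining groups. The replicate numbers pair nothing in the labels, and same-numbered libraries of a line gave correlations of 0.106, 0.0122 and 0.104; with the replicate block 42 members fell and 4 rose in KMS-11, 31 fell and 7 rose in KMS-12, and 43 rose in RPMI8226, with 220 of 228 values on the same side, 8 newly passing and 0 lost. Depth limits the falls of CDC45 and POLE2, which rest on 2 to 12 reads a treated KMS library. Among the other replication genes it limits those of E2F8, with 4 to 15 reads, and DSCC1, with 6 to 24.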
